A study of Homo sapiens with 6 samples.

Results

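The mitochondrial ribosomal proteins were examined as the protein-coding genes whose symbol is MRPL or MRPS followed by a number and at most 1 letter, which selected 78 of the 46427 genes in the deposited table. Of these, 49 carry an MRPL symbol (large subunit) and 29 an MRPS symbol (small subunit). Messenger RNA was sequenced from the human cell line VK2/E6E7, vaginal epithelium made immortal by the papillomavirus genes E6 and E7 and labelled as WT in genotype. The HMU group received Lactobacillus salivarius HHuMin-U, a lactic acid bacterium, at 1e8 CFU/mL, and the PBS group received phosphate-buffered saline without bacteria. Both were collected after 6 h from the same line and medium, with 3 biological replicates per group according to the design text. The comparison addressed how vaginal epithelial cells respond to this bacterium.

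Mitochondrial ribosomal proteins are encoded in the nucleus, made in the cytosol and imported into the mitochondrion, where they assemble with 12S rRNA (small subunit) or 16S rRNA (large subunit). The small subunit reads the mitochondrial messenger and the large subunit joins amino acids, and together they make the few respiratory-chain and ATP synthase subunits that mitochondrial DNA encodes. Many of these proteins have a bacterial counterpart, and others are found only in mitochondria. MRPS18A and MRPS30 sit in the large subunit despite their symbols, and MRPS36 is a subunit of the 2-oxoglutarate dehydrogenase complex.

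HMU libraries held 64370749 to 65957584 counts each and PBS libraries 64292566 to 65593367. Levels of 1 gene are given as counts per 1000000 (CPM) after TMM scaling, which sets the bulk of genes to no change; its factors were 0.893 to 0.920 in HMU and 1.10 to 1.11 in PBS libraries. HMU replicate 2 stood apart from its group, with a chi-square per degree of freedom over all genes of 68.2 and 117 against the other HMU libraries, where those differed from each other by 14.4 and PBS libraries by 5.12 to 6.24. The epithelial markers KRT5, KRT14, KRT6A and TP63 were abundant, and the 8 listed markers summed to 55733 to 59945 transcripts per 1000000 (TPM) in HMU and 71765 to 73538 TPM in PBS libraries. That sum is mostly KRT5, KRT14 and KRT6A, and the list also holds KRT13, EPCAM, CDH1 and DSG3. By edgeR on counts 3 of the 8 rose and 1 fell. The log2 fold changes ran from -0.70 to 1.94, with a median of 0.21. Of 5 leukocyte markers, PTPRC reached at most 11, CD3E 5 and LYZ 4 counts in any library. CD68 and CD14 rose (edgeR adjusted p = 2.06e-05 and 0.000222), and the list's sum was 131 to 140 TPM in HMU and 80.7 to 84.9 TPM in PBS libraries. The 6 fibroblast and endothelial markers, of which 5 were tested, 3 rose and 1 (COL1A1, the most abundant) fell, summed to 31.1 to 34.9 TPM in HMU and 48.8 to 52.4 TPM in PBS libraries, with COL3A1 at no more than 4 counts in any library and PDGFRA at no more than 33 counts in HMU and 0 in PBS libraries. All libraries came from the same epithelial line, so these lists are given as RNA levels and not as shares of cell types. Their part in the results below was not tested. In bulk RNA, fewer cells of a type and less RNA per cell cannot be told apart.

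All 78 members passed the filter on low counts, at 207 to 6761 counts per library. Per transcript length, where genes can be compared, the mean level over the 6 libraries ran from 6.53 to 187 TPM with a median of 60.0 TPM. MRPL51, a mitochondria-specific large-subunit protein, was the most abundant at 183, 206 and 174 TPM in HMU cells and 186, 186 and 188 TPM in PBS cells. MRPS15, the counterpart of bacterial S15, ranked after it at 138, 164 and 141 TPM in HMU cells and 171, 169 and 170 TPM in PBS cells. MRPS24, the counterpart of bacterial S3, followed with 164, 186 and 146 TPM in HMU cells and 142, 144 and 143 TPM in PBS cells. The HMU and PBS ranges overlapped for MRPL51, MRPS24 was higher in every HMU library and MRPS15 lower. After TMM the direction of MRPS15 was the opposite, with a log2 fold change of 0.21 that was not called (edgeR adjusted p = 0.173). MRPL37, MRPL12 and MRPS34 were also abundant, with means of 108, 113 and 96.7 TPM in HMU cells and 137, 131 and 120 TPM in PBS cells. At the low end stood MRPS25, with 5.70, 5.70 and 5.59 TPM in HMU cells and 7.24, 8.04 and 6.91 TPM in PBS cells. MRPL42, MRPS33 and MRPL54 stood above it, at means of 6.82, 11.8 and 14.7 TPM over the 6 libraries. MRPL42, whose longest annotated transcript has 15582 bases, averaged 45.2 CPM in HMU and 55.9 CPM in PBS cells. Its low place thus holds on the TPM scale and not in CPM. The median member was at 54.2 TPM in HMU and 65.7 TPM in PBS cells.

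HMU treatment was accompanied by small changes in both directions and by 1 large rise. At an adjusted p under 0.05 in edgeR's quasi-likelihood test, 12 members rose, 7 fell and 59 were not called. Over all 17990 genes tested 24.8% rose and 24.9% fell, 49.7% in either direction, so the share of members called, 24.4%, was below the background. HMU and PBS libraries did not overlap for 33 members (42.3%), 24 of them higher and 9 lower in HMU cells, against 62.3% of all genes tested (30.3% higher and 32% lower). All 19 called members were among those 33. The median log2 fold change was 0.10 over the members and -0.0025 over all genes tested. With library sizes only, without TMM factors, all genes shifted to a median of -0.28 and the members to -0.18. Members stood 0.106 above all genes under TMM and 0.103 above them with library sizes only. This change of scaling moves every gene by nearly the same amount, so it cannot test that distance. The distance was -0.0033 without HMU replicate 2 and -0.030 after a correction for transcript length. Fold changes beyond 2-fold were few: 1 of 78 members (1.28%) passed that size, against 16.8% of all genes and 10.0% of the 8844 protein-coding genes within the members' CPM range. For 72 members (92.3%) the log2 fold change lay within 0.5 of 0, as for 68.7% of those 8844 genes.

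**Figure D1:**
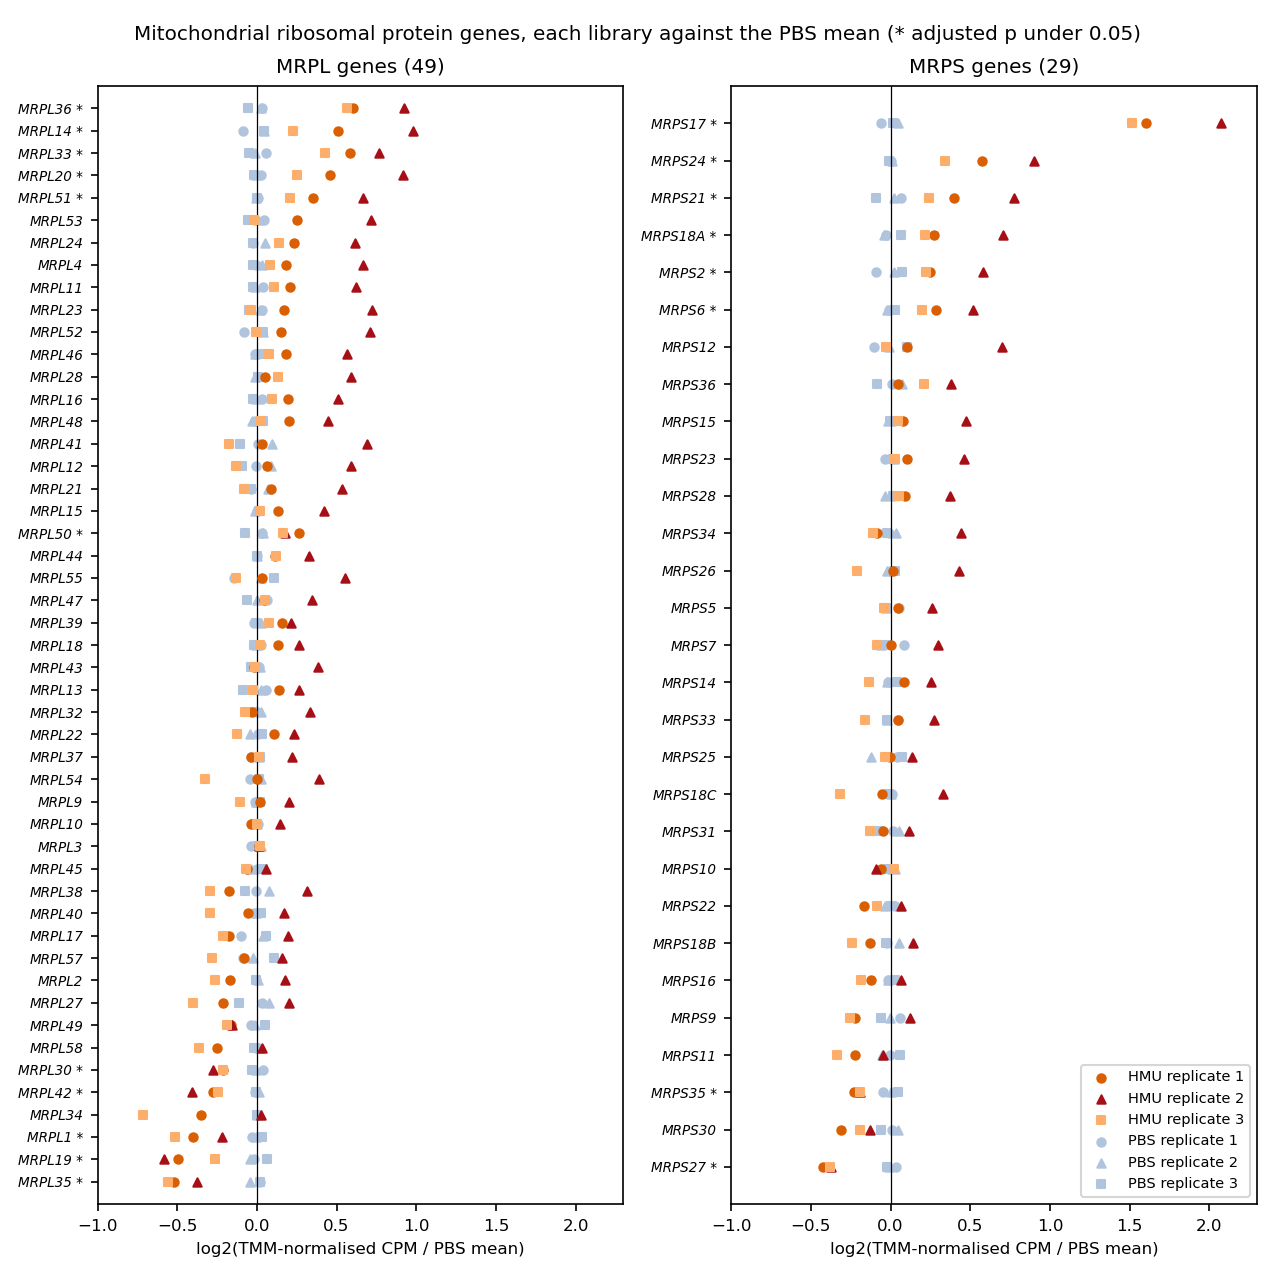
Level of every member in each of the 6 libraries, as log2 of its CPM over the mean of the PBS libraries, with MRPL members left, MRPS members right and an asterisk for an adjusted p under 0.05. PBS libraries sit near 0 with little spread, MRPS17 lies far above the rest in each HMU library, and HMU replicate 2 is the rightmost point for most members (medians over members of 0.038, 0.32 and -0.040 in HMU replicates 1, 2 and 3).

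MRPS17, the counterpart of bacterial S17 in the small subunit, had the largest change. Its level was 61.1, 84.4 and 57.4 CPM in HMU cells and 19.2, 20.7 and 20.3 CPM in PBS cells. Each HMU library was above every PBS library, and replicate 2 was the highest of its group. The fold change was 3.37 (log2 1.75 ± 0.15, SE; edgeR adjusted p = 6.86e-05). The deposited TPM values, 62.1, 77.7 and 61.0 in HMU cells and 25.1, 27.3 and 26.9 in PBS cells, also did not overlap. Its log2 fold change was 1.56 without HMU replicate 2, 1.47 under scaling by library size alone and 1.59 after a correction for transcript length. The gene spans chr7:55951877-55956500 (GRCh38), overlaps no other gene in RefSeq, and its 4 pseudogene rows held at most 3 counts in any library. Of the genes beside it, NIPSNAP2 had a log2 fold change of 0.23 (adjusted p = 0.0228) and ZNF713 of -0.24 (adjusted p = 0.227) in edgeR. Its promoter is shown because it belongs to the member that changed most: the 300 bases at chr7:55951627-55951926, plus strand, read 250 bases before to 50 after the start in the RefSeq table for GRCh38.p14, with the letters of a YY1 core (GATGGCG or its reverse complement) in capitals.
MRPS17: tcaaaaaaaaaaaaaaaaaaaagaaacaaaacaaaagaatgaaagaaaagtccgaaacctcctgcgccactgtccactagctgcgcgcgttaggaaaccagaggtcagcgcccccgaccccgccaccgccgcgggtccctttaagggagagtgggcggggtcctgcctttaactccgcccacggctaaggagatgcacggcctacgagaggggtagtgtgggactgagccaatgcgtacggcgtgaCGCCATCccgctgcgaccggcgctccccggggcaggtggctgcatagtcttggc

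Among large-subunit members, 6 rose (12.2%) and 5 fell (10.2%), against 24.8% and 24.9% of all genes tested. MRPL36, the counterpart of the small bacterial protein L36, rose the most. It had 29.6, 37.0 and 28.9 CPM in HMU cells and 19.9, 19.9 and 18.7 CPM in PBS cells, without overlap, a log2 fold change of 0.70 ± 0.11 (SE, edgeR adjusted p = 0.00129). The gene lies at chr5:1798385-1801434 and overlaps NDUFS6, a complex I subunit, which had a log2 fold change of 0.28 (adjusted p = 0.191) with overlapping groups. Without HMU replicate 2 the value for MRPL36 was 0.59, and with the length correction 0.28, still called in each. The promoter window of MRPL36, chr5:1799788-1800087 on the minus strand, lies inside the gene's span, so the start used is not at the gene's outer end. It is set out next as that of the large-subunit member with the largest rise, with a YY1 core in capitals.
MRPL36: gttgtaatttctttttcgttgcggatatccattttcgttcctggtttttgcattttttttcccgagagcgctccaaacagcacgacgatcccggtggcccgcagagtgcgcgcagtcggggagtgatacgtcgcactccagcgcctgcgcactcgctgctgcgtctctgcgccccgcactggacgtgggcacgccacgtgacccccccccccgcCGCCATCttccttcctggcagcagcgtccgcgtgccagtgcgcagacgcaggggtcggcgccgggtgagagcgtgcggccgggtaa

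MRPL33, the counterpart of bacterial L33, had 27.7, 31.5 and 24.9 CPM in HMU cells and 19.3, 18.4 and 17.9 CPM in PBS cells. MRPL14, which receives the assembly factor MALSU1, had 45.7, 63.5 and 37.7 CPM in HMU cells and 30.3, 33.1 and 33.1 CPM in PBS cells. MRPL20, the counterpart of bacterial L20, had 36.8, 50.5 and 31.8 CPM in HMU cells and 27.2, 26.6 and 26.4 CPM in PBS cells. In all of these every HMU library was above every PBS library, HMU replicate 2 highest and replicate 3 lowest. Their log2 fold changes were 0.60 for MRPL33 (edgeR adjusted p = 0.00186), 0.61 for MRPL14 (adjusted p = 0.0235) and 0.57 for MRPL20 (adjusted p = 0.0195). With the length correction MRPL33 and MRPL14 lost their calls, at 0.16 (edgeR adjusted p = 0.0699) and 0.22 (adjusted p = 0.0807). Without HMU replicate 2 MRPL14 was at 0.38 and MRPL20 at 0.36, both still called. MRPL51 averaged 95.2 ± 15.8 CPM in HMU cells and 71.2 ± 0.39 CPM in PBS cells (SD, n = 3 each), a log2 fold change of 0.42 (edgeR adjusted p = 0.0188) that was 0.13 and not called with the length correction (adjusted p = 0.0802). MRPL14, MRPL20 and MRPL51 also lost their calls with library sizes only, at 0.32, 0.28 and 0.14 (edgeR adjusted p = 0.141, 0.142 and 0.312), and without any 1 of the PBS libraries. MRPL50, named after its values were seen because it was the remaining call, had a log2 fold change of 0.20 (adjusted p = 0.0484 in edgeR) that was called in 4 of the 18 other settings.

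MRPL35, the counterpart of bacterial L35, fell the most, to 27.7, 30.6 and 27.0 CPM in HMU cells, against 40.1, 38.5 and 40.2 CPM in PBS cells. MRPL19, the counterpart of bacterial L19, had 44.9, 42.3 and 52.7 CPM in HMU cells and 62.4, 61.4 and 65.9 CPM in PBS cells. No HMU library reached a PBS library in either gene, and HMU replicate 2 was the lowest library for MRPL19 and the highest HMU library for MRPL35. Their log2 fold changes were -0.48 ± 0.075 for MRPL35 (edgeR adjusted p = 0.00149) and -0.44 ± 0.095 for MRPL19 (adjusted p = 0.00654), with SE. MRPL1, the protein of the mobile L1 stalk, averaged 21.5 ± 2.2 CPM in HMU cells and 27.9 ± 0.61 CPM in PBS cells (SD, n = 3 each), a log2 fold change of -0.37 (edgeR adjusted p = 0.0106). MRPL42, a mitochondria-specific protein, had a log2 fold change of -0.31 (adjusted p = 0.00877), and MRPL30 of -0.23 (adjusted p = 0.0184). The call of MRPL30 was lost without HMU replicate 1 and without any 1 of the PBS libraries. MRPL19 lies at chr2:75646783-75662206 and MRPL35 at chr2:86199433-86213794. The promoter of MRPL19, chr2:75646533-75646832 on the plus strand, is shown as one of a gene that fell in every setting; it holds none of the 5 motifs searched.
MRPL19: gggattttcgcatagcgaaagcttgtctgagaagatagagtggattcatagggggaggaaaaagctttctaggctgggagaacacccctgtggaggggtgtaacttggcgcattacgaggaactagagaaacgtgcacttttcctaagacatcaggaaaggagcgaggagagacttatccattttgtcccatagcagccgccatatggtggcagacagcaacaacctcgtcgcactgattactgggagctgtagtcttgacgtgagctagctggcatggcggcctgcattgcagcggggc

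Among small-subunit members, 6 rose (20.7%) and 2 fell (6.90%), against 24.8% and 24.9% of all genes tested. After MRPS17, MRPS24 had the largest change, with 60.4, 75.5 and 51.4 CPM in HMU cells and 40.5, 40.8 and 40.2 CPM in PBS cells. Its log2 fold change was 0.62 ± 0.13 (SE, edgeR adjusted p = 0.0063). Without HMU replicate 2 the value was 0.47, and with library sizes only 0.34 (edgeR adjusted p = 0.0494), still called in each. The call was lost in the limma-trend fits on log2(TPM + 1) and log2(TPM + 0.1). A readthrough gene, URGCP-MRPS24, overlaps MRPS24, so the split of reads between them is uncertain. MRPS21, the counterpart of bacterial S21, averaged 66.9 ± 13.2 CPM in HMU cells and 47.7 ± 2.6 CPM in PBS cells (SD, n = 3 each), a log2 fold change of 0.49 (edgeR adjusted p = 0.02). MRPS2, the counterpart of bacterial S2, averaged 70.5 ± 10.1 CPM in HMU cells and 54.9 ± 3.2 CPM in PBS cells (SD, n = 3 each), a log2 fold change of 0.36 (edgeR adjusted p = 0.028). MRPS6, the counterpart of bacterial S6 and named after its values were seen, had a log2 fold change of 0.34 (edgeR adjusted p = 0.0211). It overlaps SLC5A3, an inositol transporter gene, which fell, with a log2 fold change of -0.66 (adjusted p = 0.0359). MRPS21, MRPS2 and MRPS6 lost their calls with library sizes only, at 0.20, 0.077 and 0.055 (edgeR adjusted p = 0.212, 0.55 and 0.62), and without any 1 of the PBS libraries. MRPS2 also lost it with the length correction, at 0.17 (adjusted p = 0.0604), and without HMU replicate 2 MRPS21 was at 0.32 and MRPS2 at 0.24, both called.

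MRPS27, a small-subunit protein with RNA-binding repeats, fell. It had 68.0, 70.6 and 70.2 CPM in HMU cells and 93.3, 90.7 and 89.9 CPM in PBS cells. The HMU libraries lay close together and well under the PBS libraries, and replicate 2 did not stand out. The log2 fold change was -0.39 ± 0.061 (SE, edgeR adjusted p = 0.00141). MRPS35, a mitochondria-specific protein, averaged 44.8 ± 0.67 CPM in HMU cells and 51.7 ± 1.7 CPM in PBS cells (SD, n = 3 each), a log2 fold change of -0.21 (edgeR adjusted p = 0.03), a call lost without HMU replicate 1 and without any 1 of the PBS libraries. The promoter of MRPS27 (chr5:72320191-72320490, minus strand; the gene spans chr5:72219403-72320240) is shown as that of the small-subunit member that fell in every setting, and holds no YY1, ETS or NRF1 core, so it has no capitals.
MRPS27: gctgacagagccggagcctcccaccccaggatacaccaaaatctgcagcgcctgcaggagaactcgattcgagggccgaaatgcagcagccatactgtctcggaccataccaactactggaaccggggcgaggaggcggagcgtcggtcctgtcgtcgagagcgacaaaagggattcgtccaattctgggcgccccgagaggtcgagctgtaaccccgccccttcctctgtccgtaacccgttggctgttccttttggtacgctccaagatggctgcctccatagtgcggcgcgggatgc

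**Figure D2:**
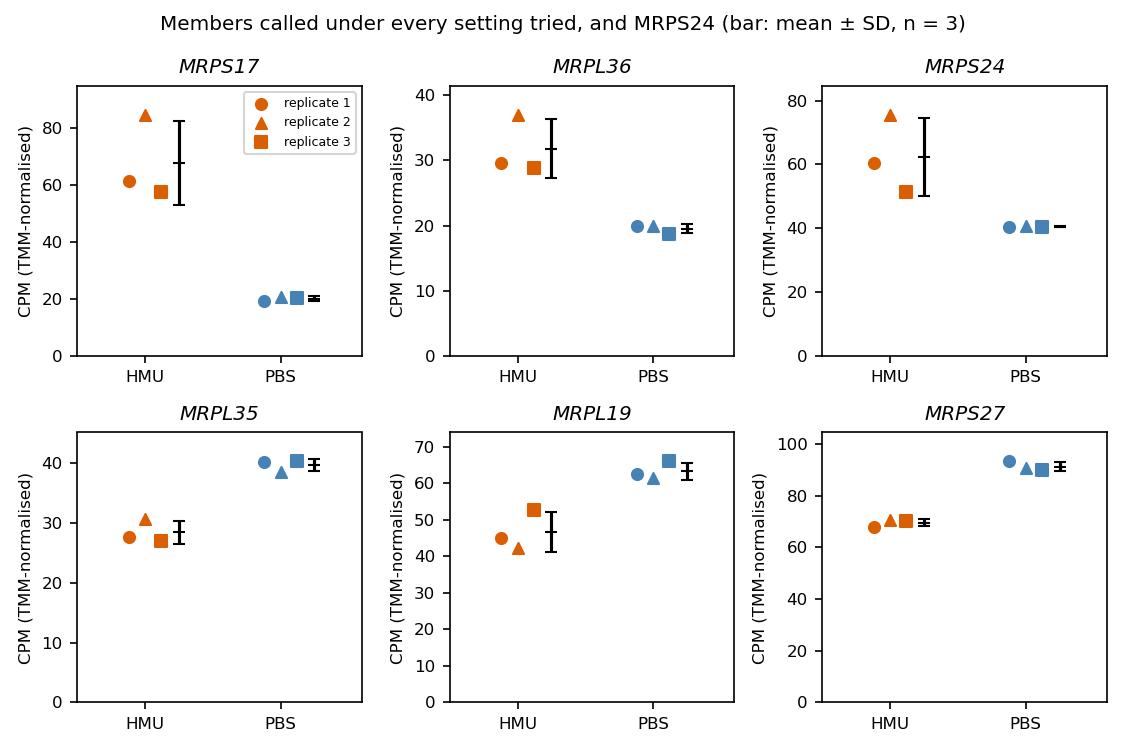
CPM in each library, HMU left of PBS, for 6 members with the mean and SD of each group. MRPS17, MRPL36 and MRPS24 are higher in each HMU library and MRPL35, MRPL19 and MRPS27 lower, and the spread is wider among HMU than among PBS libraries in all but MRPS27.

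Members with roles beside the plain subunit scheme gave few calls. The S18 family has 3 human members: MRPS18A, in the large subunit, had a log2 fold change of 0.41 (edgeR adjusted p = 0.0335) and overlaps RSPH9. Its call held in 8 of 18 other settings: the value was 0.25 without HMU replicate 2 (called), 0.13 with library sizes only (adjusted p = 0.401) and 0.074 with the length correction (adjusted p = 0.408), and the call was lost without any 1 of the PBS libraries. MRPS18B was at -0.069 (adjusted p = 0.608) and MRPS18C at 0.011 (adjusted p = 0.959), neither called with all libraries under TMM. MRPS18B was called lower without HMU replicate 2, at -0.18 (edgeR adjusted p = 0.0139), and with library sizes only, at -0.35 (adjusted p = 0.0169). With the length correction it was also called, at -0.26 (edgeR adjusted p = 0.00627). MRPL12, the stalk protein that also binds mitochondrial RNA polymerase, had 58.6, 84.3 and 51.1 CPM in HMU cells and 55.9, 59.6 and 52.6 CPM in PBS cells. Only HMU replicate 2 lay above the PBS range and replicate 3 lay below it, so the groups overlapped (log2 fold change 0.21, edgeR adjusted p = 0.354). MRPL58, a peptidyl-tRNA hydrolase that frees stalled ribosomes, was at -0.18 (adjusted p = 0.187) and passed the test without HMU replicate 2, at -0.30 (adjusted p = 0.00109). MRPL58 was also called with library sizes only, at -0.47 (edgeR adjusted p = 0.00537), and with the length correction, at -0.57 (adjusted p = 6.57e-05). MRPS30 was lower in every HMU library and just missed the threshold (log2 fold change -0.21, edgeR adjusted p = 0.0571), and MRPS36 was at 0.22 (adjusted p = 0.107). MRPS30 was called without HMU replicate 2, at -0.25 (edgeR adjusted p = 0.00668), and with library sizes only, at -0.49 (adjusted p = 0.00119). With the length correction MRPS30 was not called, at -0.15 (edgeR adjusted p = 0.161). Placing each gene by its site in the ribosome moved the counts by 1 gene. Of 51 large-subunit genes 7 rose (13.7%) and 5 fell (9.80%), and of 26 small-subunit genes 5 rose (19.2%) and 2 fell (7.69%). Each share was below the 24.8% of all genes that rose and the 24.9% that fell.

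The ratio of large-subunit to small-subunit RNA differed little between the groups, and its ranges overlapped once MRPS17 was set aside. The median log2 fold change was 0.14 over MRPL and 0.080 over MRPS members; the difference between subunits was not tested, since members are not replicates. Summed MRPL counts were 1.61, 1.61 and 1.59 times the MRPS counts in HMU cells and 1.62, 1.65 and 1.63 times in PBS cells. All HMU ratios were thus lower, by little. Without MRPS17, the member that changed most in these same data, the ratios were 1.70, 1.71 and 1.67 in HMU cells and 1.65, 1.68 and 1.66 in PBS cells. The groups then overlapped, with HMU replicates 1 and 2 above every PBS library. In TPM, MRPL genes held 65.6 ± 0.46% of the members' sum in HMU cells and 65.7 ± 0.26% in PBS cells (SD, n = 3 each). By class, 9 of 46 members placed with a bacterial counterpart rose (19.6%) and 4 fell (8.70%), with a median log2 fold change of 0.15. Of 31 members classed as mitochondria-specific, 3 rose and 3 fell (9.68% each), with a median of 0.064. Over all genes 24.8% rose and 24.9% fell. The mitochondria-specific class includes MRPS18A, which rose, and MRPS18B. Both belong to the S18 family, as does MRPS18C, which was placed with a bacterial counterpart. The split therefore does not strictly follow origin.

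The members' summed level depended on the scale and on 1 library. They held 0.280%, 0.335% and 0.269% of all counts in HMU libraries and 0.329%, 0.333% and 0.329% in PBS libraries, so replicate 2 lay above the PBS range and the other HMU libraries below it. After TMM the sums were 3083, 3757 and 2931 CPM in HMU cells and 2994, 3011 and 2991 CPM in PBS cells, with replicate 3 the only HMU library under the PBS range. In TPM the sums were 4323, 4943 and 4219 in HMU cells and 5201, 5279 and 5222 in PBS cells, all HMU libraries lower. The sums are given as values, without a test.

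**Figure D3:**
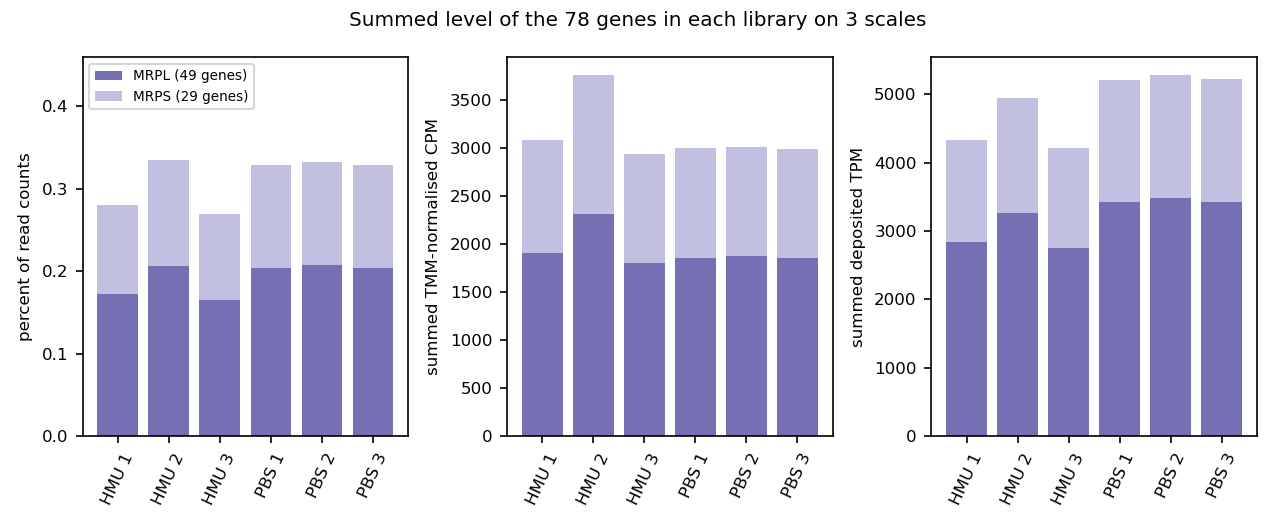
Summed level of the MRPL and MRPS members in each library as percent of counts, as TMM-scaled CPM and as deposited TPM, HMU left of PBS. HMU replicate 2 is the highest HMU library on all 3 scales, and the order of the groups differs between CPM and TPM.

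HMU replicate 2 was the highest HMU library for 72 of 78 members (92.3%), against 42.3% of all genes tested. Its CPM was a median of 1.26 times the mean of the other HMU libraries over the members, against 0.995 over all genes. The excess ran from 0.867 times for MRPL19 to 1.69 times for MRPL41. The coefficient of variation was larger among HMU than among PBS libraries for 72 members, with medians of 14.7% and 2.54%; protein-coding genes of the same CPM range had 11.2% in HMU and 3.40% in PBS libraries. Without HMU replicate 2 the members' median log2 fold change was -0.014, beside -0.011 over all genes; 17 members rose and 19 fell, where 29.4% of all genes rose and 29.7% fell. All 19 calls were kept there, with 5 further rises and 12 further falls. MRPL34, named after its values were seen, was among those falls, at 26.3, 34.2 and 20.5 CPM in HMU cells and 33.7, 33.7 and 33.6 CPM in PBS cells. Its log2 fold change was -0.32 (edgeR adjusted p = 0.151) with all libraries and -0.52 (adjusted p = 0.000642) without replicate 2. MRPL34 was also called with library sizes only, at -0.60 (edgeR adjusted p = 0.0139), and with a correction for transcript length, at -0.69 (adjusted p = 0.000384). Without HMU replicate 3, 21 members rose and 7 fell, with 26.1% of all genes called in each direction. Without PBS replicate 1, 2 or 3, 4 members rose and 5 fell each time, while 18.3%, 18.5% and 18.2% of all genes rose and 18.4%, 18.3% and 17.9% fell. MRPS17, MRPL36, MRPL35, MRPL19 and MRPS27 kept their calls in all 18 other settings.

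Transcript length moved with the changes. Over the 78 members, Spearman's rho between the length of the longest annotated transcript (626 to 15582 bases) and the log2 fold change was -0.37, and between length and the excess of HMU replicate 2 it was -0.41. Over 14026 protein-coding genes the values were -0.21 and -0.57; these points share libraries and are given as a description. Of the 26 shortest members 5 rose (19.2%) and none fell, and of the middle 26 5 rose (19.2%) and 2 fell (7.69%). Of the 26 longest 2 rose (7.69%) and 5 fell (19.2%). Each share was below the 24.8% of all genes that rose and the 24.9% that fell. Shares for other genes of the same lengths were not computed. The members' median transcript was 1722 bases long, against 3600 bases for protein-coding genes tested. After a correction for length the members' median log2 fold change was -0.070, beside -0.040 over all genes; 7 members rose and 20 fell, where 27% of all genes rose and 30.5% fell. MRPL54 (626 bases) was the shortest and had a log2 fold change of 0.050 (edgeR adjusted p = 0.832), and MRPL42 (15582 bases) lost its call with the correction, at -0.063. Whether length, RNA quality or the library of replicate 2 has a part in the members' changes was not tested.

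**Figure D4:**
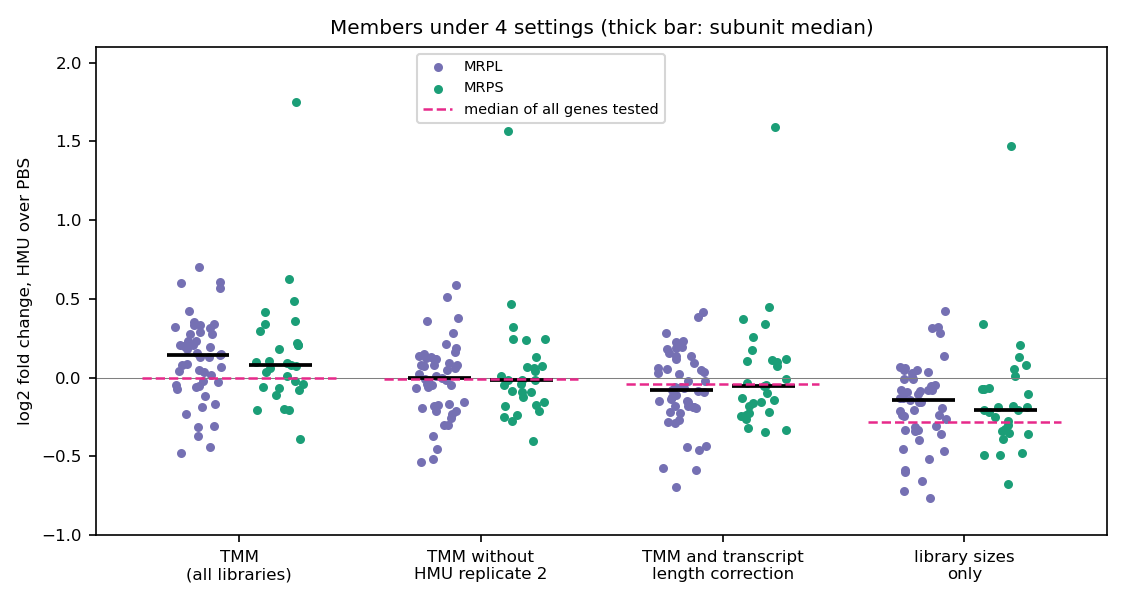
Log2 fold change, HMU over PBS, of every member under 4 settings, with the subunit medians (bars) and the median of all genes tested (dashed line). MRPS17 stays between 1.47 and 1.75 throughout, while the members' median moves from 0.10 to -0.18. It lies above the median of all genes under TMM with all libraries and with library sizes only. Without HMU replicate 2 and with the length correction it lies slightly below that median.

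Promoters were available in the RefSeq table for 70 of the 78 members, and MRPL35 had none. Each motif was searched on both strands of the 300 bases. The ETS core CCGGAAG, the kind of site that GABP reads, was present in 41.4% of members' promoters, against 18.2% of those of protein-coding genes tested and 10.7% of all in the table. The YY1 core GATGGCG was in 22.9% of members, 7.16% of tested genes and 4.35% of all promoters. Of the 12 members that rose and the 6 with a promoter that fell, 6 and 1 hold the YY1 core, 5 and 1 the ETS core, 8 and 3 the SP1 box, none the NRF1 core, and 0 and 1 the AP-1 site. In the MRPS17 and MRPL36 sequences printed above the YY1 core lies on the strand opposite to the one printed. It begins 4 bases before the start in MRPS17, where it spans the start, and 36 bases before the start in MRPL36. The NRF1 core GCATGCG was in 10.0% of members, 6.14% of tested genes and 4.13% of all promoters. The SP1 box GGGCGG was in 61.4%, 68.7% and 44.6%, and the AP-1 site TGANTCA in 1.43%, 4.9% and 7.76% of the same sets. The MRPS17 promoter holds the SP1 box at 98 and at 76 bases before the start, and that of MRPS27 at 35 bases. A match describes letters in this window and was not tested as a site.

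Genes that act with the mitochondrial ribosome gave calls in both directions, at shares to be read against the 24.8% of all genes that rose and the 24.9% that fell. Of 5 subunits with other symbols (DAP3, GADD45GIP1, AURKAIP1, PTCD3, CHCHD1) none was called, with log2 fold changes from -0.16 for PTCD3 (edgeR adjusted p = 0.0803) to 0.38 for AURKAIP1 (adjusted p = 0.136). Among 29 genes of mitoribosome assembly and rRNA modification 5 rose (17.2%) and 9 fell (31.0%). RCC1L, which takes part in assembly, had 147, 172 and 132 CPM in HMU cells and 63.8, 61.0 and 63.4 CPM in PBS cells, a log2 fold change of 1.26 (edgeR adjusted p = 5.43e-05). TRMT2B, an rRNA and tRNA methyltransferase, fell to 14.3, 11.9 and 14.9 CPM in HMU cells, against 21.1, 21.5 and 22.2 CPM in PBS cells, a log2 fold change of -0.65 (adjusted p = 0.00115). Both differences were far larger than the spread within groups. Of 26 translation factors 2 rose (7.69%) and 8 fell (30.8%), led by the release factor MTRF1L (log2 fold change 0.33) and the mitochondrial methionine aminopeptidase METAP1D (-0.82). Of 17 aminoacyl-tRNA synthetases 4 rose (23.5%) and 5 fell (29.4%), led by CARS2 (0.41) and LARS2 (-0.37). Of 22 genes of mitochondrial DNA expression and upkeep 6 rose (27.3%) and 8 fell (36.4%), led by the helicase TWNK (0.80) and MTERF1 (-0.51). Of 12 regulators of mitochondrial biogenesis 3 rose and 3 fell (25% each), led by MYC, at 802, 732 and 810 CPM in HMU cells and 322, 343 and 342 CPM in PBS cells (log2 fold change 1.22, edgeR adjusted p = 8.57e-06), and the coactivator PPARGC1A (-1.62, adjusted p = 0.00192), which was below 1 CPM in every library.

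Proteins encoded in mitochondrial DNA and cytosolic ribosomal proteins mostly rose under TMM, and fewer were called under other scalings. Of 13 proteins encoded in mitochondrial DNA 12 rose (92.3%), against 24.8% of all genes tested, with a median log2 fold change of 0.53. ND4 of complex I led them, at 8904, 7838 and 8622 CPM in HMU cells and 5477, 5154 and 5046 CPM in PBS cells (edgeR adjusted p = 0.000141). With library sizes only 9 of the 13 rose, where 13.4% of all genes rose. With the length correction 4 rose, near the 27% of all genes that rose there. The mitochondrial rRNAs that these ribosomal proteins bind, named after their values were seen, rose by a log2 of 0.52 for RNR1 (12S, adjusted p = 0.00765) and 0.36 for RNR2 (16S, adjusted p = 0.00351) in edgeR; the libraries were made by mRNA selection. Of 76 nuclear-encoded respiratory-chain and ATP synthase subunits 33 rose (43.4%) and 2 fell (2.63%), against 24.8% and 24.9% of all genes tested. Their median of 0.31 was 0.025 with library sizes only, where 2 rose and 9 fell, against 13.4% and 43.7% of all genes. With the length correction 15 rose and 8 fell, with a median of 0.085, where 27% of all genes rose and 30.5% fell. COX6B1 rose the most (0.61) and NDUFV3 fell the most (-0.39). Of 77 cytosolic ribosomal proteins 75 rose (97.4%, against 24.8% of all genes tested), led by RPL24 (0.68), with a median of 0.50. With library sizes only the median was 0.22 and 3 rose, where 13.4% of all genes rose. With the length correction the median was 0.33 and 62 rose, where 27% of all genes rose. HMU replicate 2 was the highest HMU library for 77 of the 77 cytosolic proteins and 72 of the 76 respiratory subunits, but for 5 of the 13 proteins encoded in mitochondrial DNA. Relative to all genes, the medians without HMU replicate 2 stood at -0.0033 for the mitochondrial ribosomal proteins, 0.17 for the respiratory subunits, 0.36 for the cytosolic ribosomal proteins and 0.58 for the proteins of mitochondrial DNA. The difference between these lists was not tested.

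**Figure D5:**
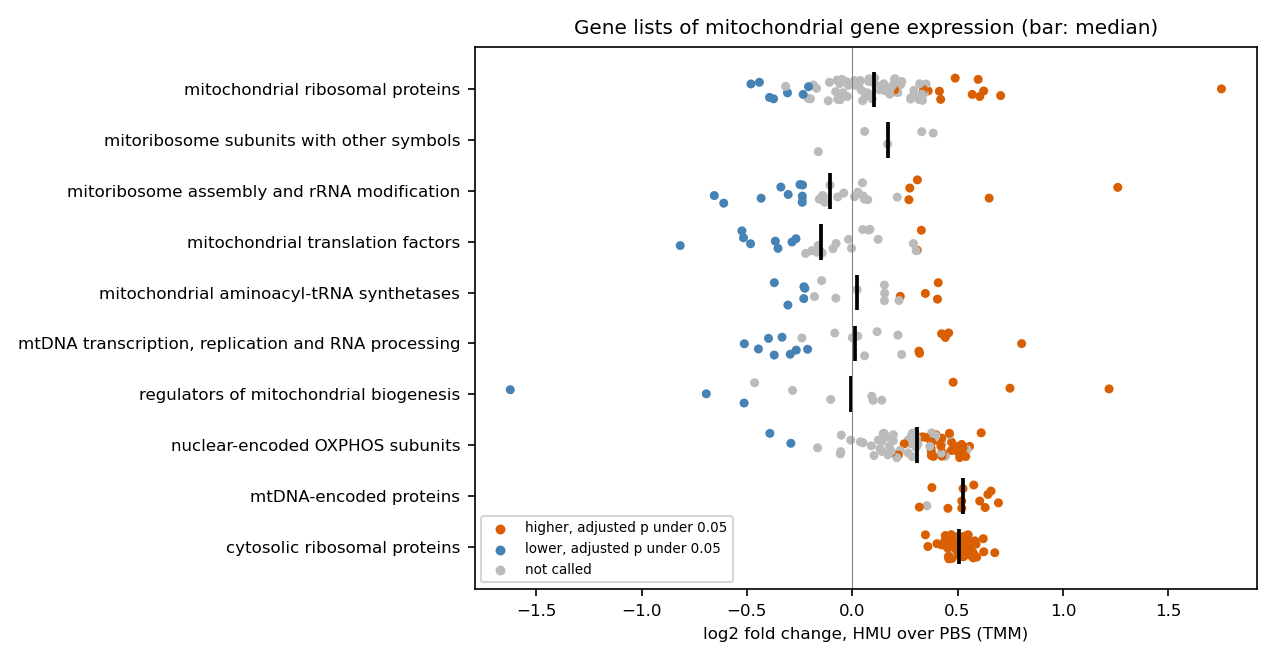
Log2 fold change, HMU over PBS, of each tested gene in the mitochondrial ribosomal proteins and 9 related lists, 1 point per gene with the list's median. Mitochondrial ribosomal proteins centre at 0.10, between the translation factors, with a median of -0.15, and the cytosolic ribosomal proteins at 0.50.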

How the data were processed

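Per the labels, libraries were made with a TruSeq stranded mRNA kit from total RNA. The authors deposited 1 table with read counts (whole numbers, taken as not normalised), FPKM values and TPM values per gene and library, per the file headers; FPKM and TPM scale by transcript length. The build is GRCh38 and the tools listed are HISAT2 2.1.0, StringTie 2.1.3b, Trimmomatic 0.38 and FastQC 0.11.7, per the submitters' processing notes. How reads were counted, with which use of strand and of reads with several matches, is not given in these sources. The treated columns are headed HMO where the labels write HMU, and were matched by the replicate number.

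Counts were fitted for all genes with edgeR 4.0.16 (R 4.3.3; filterByExpr, TMM, glmQLFit and glmQLFTest with the group as the only term), and p-values were adjusted by Benjamini-Hochberg over 17990 genes. Standard errors are the log2 fold change over the square root of F. The biological coefficient of variation was 11.9%. The test was tried on simulated counts first. Alternatives were DESeq2 1.42.0, limma 3.58.1 (voom; trend on log2 TPM + 1, TPM + 0.1 and FPKM + 1), RLE scaling, scaling by library size alone, no low-count filter, a threshold of 0.01, a replicate block, an offset from a loess trend (span 0.5) on transcript length (GENCODE 29, known for 86.4% of genes tested), and leaving out each library.

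The members, gene lists and the rule for named genes were chosen with earlier results of these data known. The rule took, per subunit, the 5 largest called rises and 5 largest called falls without overlap, the 3 most and 2 least abundant by TPM, MRPS18A, MRPS18B, MRPS18C, MRPL12, MRPL58, MRPS36 and MRPS30, and the largest called rise and fall of each list. Gene positions and promoters are RefSeq's for GRCh38.p14. Of the members, 28 have pseudogene rows and 18 overlap another protein-coding gene, and how the authors' counting split such reads is not known.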

Additional observations from a re-analysis of the deposited data

How the results depend on the processing

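With all libraries 12 members rose and 7 fell, and the median was 0.10. DESeq2, limma-voom, RLE scaling, no filter on low counts and the newer quasi-likelihood method (added after seeing the data) kept the direction of the median and both counts within 1.5 times. With library sizes only, 4 rose (MRPL 2, MRPS 2) and 28 fell (17 and 11), with a median of -0.18. All genes gave 2413 (13.4%) and 7855 (43.7%). With log2(TPM + 1), 3 rose (MRPL 2, MRPS 1) and 49 fell (29 and 20), with a median of -0.31. All genes gave 1975 (11%) and 9153 (50.9%). With log2(TPM + 0.1) the member counts were equal, the median -0.31, and all genes gave 1965 (10.9%) and 9126 (50.7%). With log2(FPKM + 1), 4 rose (2 and 2) and 29 fell (19 and 10), with a median of -0.18. All genes gave 2441 (13.6%) and 7612 (42.3%). With the length correction, 7 rose (MRPL 3) and 20 fell (13 and 7), with a median of -0.070. All genes gave 4193 (27%) and 4732 (30.5%). At an adjusted p under 0.01, 4 rose (2 and 2) and 4 fell (3 and 1). All genes gave 2987 (16.6%) and 2902 (16.1%).

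Leaving out 1 library gave 4 to 21 rises (MRPL 2 to 15, MRPS 2 to 6) and 5 to 19 falls (MRPL 4 to 12, MRPS 1 to 7), with medians from -0.014 to 0.19. For all genes it gave 3334 to 5426 rises (18.2% to 29.4%) and 3290 to 5481 falls (17.9% to 29.7%).

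Under limma-trend on log2(TPM + 1) and log2(TPM + 0.1), 9 named members changed sign. They were MRPS18A (-0.000824 and -0.000903), MRPS2 (-0.044 and -0.045), MRPS15 (-0.20 and -0.20), MRPS34 (-0.31 and -0.32), MRPL37 (-0.33 and -0.34), MRPS33 (-0.32 and -0.35), MRPL54 (-0.36 and -0.38), MRPS25 (-0.33 and -0.38) and MRPS18C (-0.37 and -0.38). MRPL37 was at -0.21 in log2(FPKM + 1), MRPS25 at -0.25 with library sizes only, and MRPS34 at -0.24 and MRPL54 at -0.44 with the length correction. The members held 0.450% of TPM in HMU and 0.523% in PBS libraries, against 0.295% and 0.330% of counts.

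Libraries of the same number did not deviate together (correlations of -0.019, 0.035 and 0.048), so the numbers were not taken as pairs, and not every library correlated best with its own number. With the replicate block 12 members rose and 5 fell, 1 of them MRPS, where 23.2% of all genes rose and 23.6% fell. The cause of these shifts was not tested. The lowest member, MRPL54, had at least 207 counts in every library, and 3 libraries per group limit the precision of all values.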
